A study of Mus musculus with 8 samples.

Results

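The genes described here encode classical cadherins, protocadherins and Fat cadherins. They were chosen by name: a protein-coding gene was taken when its NCBIM37 symbol was *Cdh* with a number, began with *Pcdh*, or was one of *Fat1*, *Fat2*, *Fat3* and *Fat4*. *Cdh23* and *Pcdh15*, the tip-link cadherins of hair cells, were left out. Of the 36536 genes with counts, 60 matched, and 57 of these reached a CPM of at least 1 in at least 2 of the 8 libraries. *Cdh7*, *Cdh12* and *Cdh16* did not. The CPM of a gene is its count divided by all gene counts of the library and scaled to 1000000, and it is not corrected for gene length. The 57 genes comprised 5 type I cadherins, 11 type II cadherins, 3 other *Cdh* genes, 4 Fat genes, 9 delta protocadherins, 2 other protocadherins outside the clusters, 21 *Pcdhb* genes and 1 gene model each for the *Pcdha* and *Pcdhg* clusters.

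RNA-seq was performed on cells from freshly dissected cochleas of postnatal day 1 (P1) and postnatal day 6 (P6) mice of the strain B6;FVB-Tg(Lfng-EGFP)HM340Gsat/Mmucd, in which a bacterial artificial chromosome with *Lfng* regulatory sequence drives GFP. Every library, GFP- ones included, came from mice of this transgenic line, and no treatment was given. The GFP+ groups hold the brightest cells, which are the Deiters' cells, the outer (but not the inner) pillar cells, and the inner phalangeal and border cells around inner hair cells, and the GFP- groups hold the GFP-negative cells of the dissected tissue. Cells with low GFP, which the study took to be mostly inner pillar and inner hair cells, were in neither fraction. Each of the 4 groups (P1 GFP+, P1 GFP-, P6 GFP+ and P6 GFP-) has 2 replicate libraries. The sources used here do not say whether replicates came from separate litters or sorts, so p-values measure only the spread between these libraries. In sorted populations of mixed cells, fewer cells of a type and less RNA per cell cannot be told apart. As the methods describe the dissection, the lateral wall was removed at P1 but only partly at P6, so age and dissection cannot be told apart.

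Cadherins are calcium-dependent adhesion proteins. Type I cadherins such as E-cadherin bind the same cadherin on the neighbouring cell and are joined to actin through catenins at adherens junctions, and type II cadherins form weaker contacts and are used by mesenchyme, endothelium and neurons. Protocadherins take part in cell recognition, and each neuron or epithelial cell can use a different selection of the clustered *Pcdha*, *Pcdhb* and *Pcdhg* genes. Fat cadherins are giant adhesion proteins with roles in tissue polarity and growth. In the organ of Corti, junctions between supporting cells and hair cells hold the reticular lamina together.

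RefSeq promoter windows were found for 22 of the 57 genes (23 windows), and 4 of them are shown for genes that the comparison of GFP+ and GFP- cells turned on: *Cdh6*, *Pcdh17* and *Pcdh18*, which were lower in P1 GFP+ cells, and *Fat3*, which was higher. Each is the 250 bases before the RefSeq transcription start, matched exactly to the NCBIM37 genome and printed 5′ to 3′ on the strand of the gene. Capitals mark 3 hexamers searched on both strands: the GC box GGGCGG or CCGCCC, the E-box CAGGTG or CACCTG, which Snail and Zeb repressors bind, and the TATA-like TATAAA or TTTATA. *Cdh1*, *Cdh3*, *Cdh4* and *Cdh11* had no entry.
Cdh6 (chr15:13103431-13103680, minus strand): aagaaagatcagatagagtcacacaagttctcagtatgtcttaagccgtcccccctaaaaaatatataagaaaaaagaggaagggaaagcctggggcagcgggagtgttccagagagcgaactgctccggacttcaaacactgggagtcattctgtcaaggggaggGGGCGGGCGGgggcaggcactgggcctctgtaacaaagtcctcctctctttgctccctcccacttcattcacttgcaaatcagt
Pcdh17 (chr14:84843120-84843369, plus strand): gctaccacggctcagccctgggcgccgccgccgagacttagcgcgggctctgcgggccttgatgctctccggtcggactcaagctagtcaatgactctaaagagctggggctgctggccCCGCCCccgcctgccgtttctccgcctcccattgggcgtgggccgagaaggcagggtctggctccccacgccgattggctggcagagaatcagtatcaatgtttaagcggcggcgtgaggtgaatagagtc
Pcdh18 (chr3:49561239-49561488, minus strand): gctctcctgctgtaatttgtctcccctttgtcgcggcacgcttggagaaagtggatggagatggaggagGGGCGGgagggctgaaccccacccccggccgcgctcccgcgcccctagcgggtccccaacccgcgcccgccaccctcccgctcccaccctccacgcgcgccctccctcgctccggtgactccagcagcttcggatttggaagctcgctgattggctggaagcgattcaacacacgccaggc
Fat3 (chr9:16306499-16306748, minus strand): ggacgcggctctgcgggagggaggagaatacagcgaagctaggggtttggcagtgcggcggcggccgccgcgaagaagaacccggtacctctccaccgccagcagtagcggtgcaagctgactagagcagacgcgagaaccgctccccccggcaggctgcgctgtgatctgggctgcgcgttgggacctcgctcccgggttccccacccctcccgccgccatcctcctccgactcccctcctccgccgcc

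None of these 4 windows overlapped an annotated exon. The window of *Cdh6* held 2 overlapping GC boxes, those of *Pcdh17* and *Pcdh18* held 1 each, and that of *Fat3* held none of the 3 motifs. The *Fat3* window lies 123.8 kb upstream of the start of the annotated gene in NCBIM37. The GC content was 70.4% for *Fat3* and 51.2% for *Cdh6*. Over all 23 windows of these genes, a GC box was found in 9, against 32.7% of all 32851 promoter windows. The E-box was found in 1 window (*Fat1*), against 17.2% of all windows. The TATA-like hexamer was found in 1 (*Pcdh8*), against 12.4%. A match describes the letters only.

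The libraries held from 17769024 (P6 GFP+ replicate 1) to 67695039 (P6 GFP- replicate 2) gene counts. *Lfng* itself was at 2460 and 2821 CPM in the P1 GFP+ libraries, 17.2 and 32.5 CPM in P1 GFP-, 3755 and 2365 CPM in P6 GFP+ and 45.8 and 28.5 CPM in P6 GFP-, which goes with the labels. Of 10 supporting cell markers, 9 were more than 4-fold higher in GFP+ cells at each age by the criteria defined below. Of 10 hair cell markers, 5 were so at P1 and 6 at P6, with summed levels of 694 and 799 CPM in P1 GFP+ cells against 463 and 400 CPM in P1 GFP- cells. The part of hair cell RNA in the GFP+ values was not tested.

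P6 GFP+ replicate 2 stood apart for these genes. Of the 57 genes, 54 had a higher CPM in it than in replicate 1, with a median log2 ratio of 0.88, and 27 differed by more than 2-fold, each higher in replicate 2. Over all 19233 genes the median was 0.08, 56.5% were higher in replicate 2 and 14.2% were more than 2-fold higher in it. In P1 GFP+ cells the same median of the 57 genes was -0.07, with 23 of them higher in replicate 2, against 57.6% of all genes. The markers of other cell types moved in the same direction. All 7 endothelial markers were higher in P6 GFP+ replicate 2. Their sums were 90.2 CPM in replicate 1 and 284 CPM in replicate 2. They were 344 to 426 CPM in the 4 GFP- libraries and 38.0 to 40.4 CPM in P1 GFP+ cells. *Emcn* made up most of the GFP- sums, at 206 and 213 CPM in P6 GFP- cells. *Pecam1*, *Kdr*, *Tek*, *Flt1*, *Tie1* and *Egfl7* were each higher in P6 GFP+ replicate 2 than in both P6 GFP- libraries. *Pecam1* was at 32.9 CPM against 13.6 and 12.8 CPM. The stria marginal cell markers summed to 8.72 and 67.2 CPM in the P6 GFP+ replicates, against 19.0 and 19.9 CPM in P6 GFP- cells. The mesenchyme and fibrocyte markers summed to 1780 and 3576 CPM (7 of 8 higher in replicate 2), the Schwann cell markers to 1360 and 2763 CPM (7 of 8) and the macrophage markers to 28.9 and 65.4 CPM (6 of 6), while the supporting cell markers fell from 8842 to 6697 CPM. The part of these cells in the results below was not tested, and values without this library are given beside the results that it changed.

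**Figure D1:**
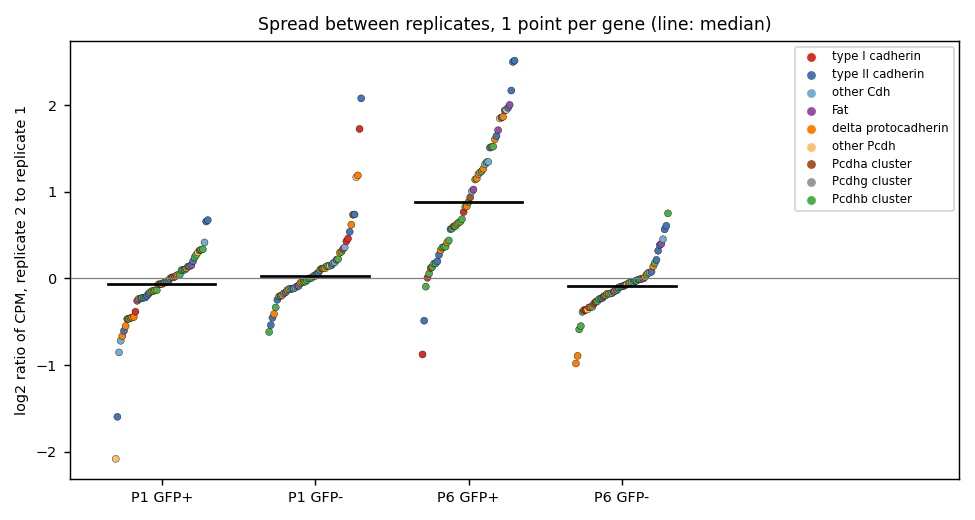
Log2 ratio of the CPM in replicate 2 to that in replicate 1 for each of the 57 genes, in each group, coloured by class; the line is the median. The P6 GFP+ points lie almost all above 0 with a median of 0.88, whereas the P1 GFP+ median is -0.07.

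To compare levels between genes, the CPM was divided by the exon length of the annotated gene (CPM per kb). *Cdh1*, which encodes E-cadherin, was by far the most abundant of the 57 genes in GFP+ cells, at 392 ± 3.72 CPM per kb (SD, n = 2) at P1 and 106 ± 6.22 at P6. At P1 it was followed by *Cdh2* (N-cadherin; 15.7 ± 3.58), *Cdh3* (P-cadherin; 15.3 ± 0.511), *Pcdhb17* (12.3 ± 0.852) and *Fat1* (12.2 ± 1.06). The mean of *Cdh2* differed from those of the other 3 by less than its SD, and *Pcdhb17* and *Fat1* overlapped, whereas both *Cdh3* libraries lay above those of *Pcdhb17* and *Fat1*. *Cdh1* made up 69.7% and 71.1% of the summed CPM per kb of all 57 genes in the P1 GFP+ libraries. Its share was 52.4% and 39.8% in the P6 GFP+ libraries and between 9.89% and 12.9% in the 4 GFP- libraries.

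GFP- cells had another order. At P1 *Cdh6* (51.6 ± 13.5 CPM per kb), *Fat1* (47.1 ± 3.75), *Cdh11* (44.4 ± 3.32) and *Cdh1* (42.5 ± 2.37) led, with overlapping spreads. At P6 *Cdh11*, a type II cadherin of mesenchyme and osteoblasts, was highest at 74.1 ± 3.23 CPM per kb, above *Cdh1* (46.7 ± 8.31) and *Fat1* (41.5 ± 0.0408), which did not differ beyond their spread. By class, type I cadherins made up 77.9% (P1) and 53.0% (P6) of the summed level in GFP+ cells, as opposed to 16.3% and 15.7% of that in GFP- cells. Type II cadherins made up 3.84% of the level at P1 and 12.1% at P6 in GFP+ cells, as opposed to 33.9% and 35.5% in GFP- cells. The P6 GFP+ shares differed between replicates 1 and 2, at 60.2% and 45.8% for type I and at 8.44% and 15.8% for type II. The *Pcdhb* cluster contributed 49.1 ± 0.184 CPM per kb in P1 GFP+ cells and 62.8 ± 1.03 in P1 GFP- cells, so that this class differed less between the fractions than type II cadherins did (21.4 ± 0.828 against 138 ± 12.2).

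**Figure D2:**
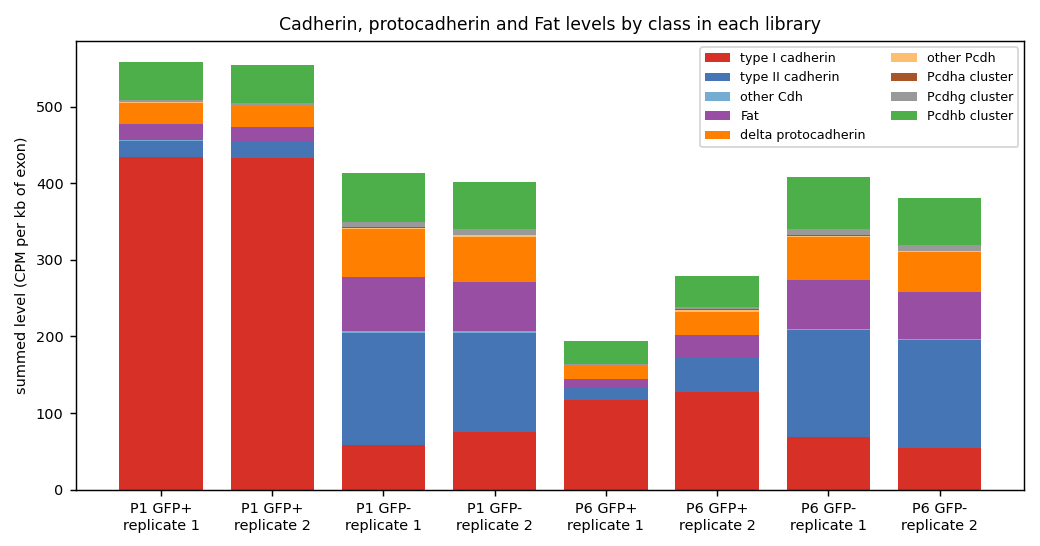
Summed level of each class, in CPM per kb of exon, as a stacked bar for each of the 8 libraries. The red type I part is 77.9% of the bar in P1 GFP+ cells and 16.3% in P1 GFP- cells, and the P6 GFP+ bar is higher in replicate 2 (278 against 195), mostly through type II, Fat and delta protocadherin genes.

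The first comparison asked which of these genes differ between supporting cells and the other cells of the cochlea at P1. Counts of all genes were tested together in edgeR by quasi-likelihood, and p-values were adjusted by the Benjamini-Hochberg method. A gene is called past the criteria where p and adjusted p were below 0.01 and the fold change exceeded 4. All 57 genes were tested. *Cdh1*, *Fat3* and *Pcdhb1* were past the criteria and higher in GFP+ cells, and 16 genes were past them and lower. Over all 18682 genes tested the shares were 6.46% higher and 11.4% lower. With the adjusted p alone, 7 of the 57 were higher and 31 lower, against 16.6% and 20.7% of all genes. The median log2 fold change of the 57 was -1.37, against 0.01 over all genes.

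Of the 5 type I cadherins, the class of epithelial adherens junctions, 3 were higher in P1 GFP+ cells by the adjusted p. *Cdh1* (ENSMUSG00000000303, chromosome 8, 109127251 to 109194146) was at 1779 and 1803 CPM in the GFP+ libraries and at 187 and 202 CPM in the GFP- libraries. Its replicates lay close together and far from the other group, with a log2 fold change of 3.31 ± 0.12 (SE) and an adjusted p of 1.51e-05. *Cdh3*, its neighbour, ends 46.4 kb before the start of *Cdh1* and was at 62.7 and 59.8 CPM in GFP+ cells against 15.7 and 21.6 CPM in GFP- cells (log2 1.82 ± 0.16, adjusted p = 0.000296), short of a 4-fold change. *Cdh15* (M-cadherin), known from muscle, passed the adjusted p at a low level, with 2.71 and 2.05 CPM against 0.528 and 0.745 CPM. Without either P1 GFP+ replicate its adjusted p was 0.0432 or 0.0149.

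*Cdh2* and *Cdh4*, the other type I cadherins, did not pass. *Cdh2* was at 147 and 106 CPM in GFP+ cells and at 68.9 and 87.2 CPM in GFP- cells. The groups did not overlap, but the difference (log2 0.81 ± 0.20, adjusted p = 0.0162) missed the threshold. *Cdh2* passed with the DESeq2 test (adjusted p = 0.000735), with no filter on low counts (6.32e-11), without P1 GFP+ replicate 2 (0.00805) and without P1 GFP- replicate 1 (7.56e-05) or 2 (2.49e-08). *Cdh4* (R-cadherin) was steady in GFP+ cells, at 72.4 and 73.0 CPM, and split in GFP- cells, at 31.3 and 104 CPM (log2 0.21 ± 0.49, adjusted p = 0.748). Without P1 GFP- replicate 1 the sign turned (log2 -0.43, adjusted p = 0.000433), and without replicate 2 it was 1.31 (adjusted p = 6.73e-13). The GFP- replicate with more *Cdh4* also had more of the neuron markers (753 against 301 CPM summed), and the part of neurons in this value was not tested.

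Of 11 type II cadherins, 7 were past the criteria at P1, all lower in GFP+ cells: *Cdh6*, *Cdh8*, *Cdh11*, *Cdh18*, *Cdh19*, *Cdh20* and *Cdh22*. *Cdh6* (ENSMUSG00000039385, chromosome 15, 12963955 to 13103394), whose promoter window is printed above, had the largest difference of the 57 genes, at 2.09 and 1.77 CPM in GFP+ cells against 161 and 111 CPM in GFP- cells. This is a log2 fold change of -6.00 ± 0.25 (adjusted p = 2.24e-05). *Cdh11* was at 44.1 and 38.4 CPM in GFP+ cells against 177 and 197 CPM in GFP- cells (log2 -2.07 ± 0.12, adjusted p = 5.93e-05). *Cdh19*, which Schwann cell precursors use, was at 1.09 and 0.683 CPM against 17.3 and 15.9 CPM (log2 -4.06 ± 0.26).

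The rest of the type II class lay in the same direction. *Cdh18* (log2 -5.50 ± 0.26) and *Cdh8* (-4.68 ± 0.35), both expressed in neurons, were below 0.6 CPM in each P1 GFP+ library. *Cdh20* had a log2 fold change of -3.05 ± 0.50. *Cdh5* (VE-cadherin), the adhesion protein of endothelial junctions, was at 7.55 and 6.47 CPM in GFP+ cells against 24.0 and 25.1 CPM in GFP- cells (log2 -1.70 ± 0.15, adjusted p = 0.000300). *Cdh10* (-1.42 ± 0.16, with an adjusted p of 0.0101 without P1 GFP+ replicate 1) and *Cdh24* (-1.12 ± 0.11) also passed the adjusted p but not the fold limit, and *Cdh9* did not pass (adjusted p = 0.0141). *Cdh22* had 0.240 and 0.442 CPM against 1.32 and 2.27 CPM, and its call (log2 -2.37 ± 0.47, adjusted p = 0.00722) was lost without either P1 GFP+ replicate (adjusted p 0.0668 and 0.0246).

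The 3 other *Cdh* genes were all past the criteria and lower in P1 GFP+ cells. *Cdh13* (T-cadherin), which is anchored in the membrane by a lipid, was at 0.589 and 0.281 CPM in GFP+ cells and at 9.40 and 10.7 CPM in GFP- cells (log2 -4.32 ± 0.35). *Cdh17* and *Cdh26* rested on few reads in GFP+ cells. *Cdh26* had 6 reads in both P1 GFP+ libraries together against 284 in the GFP- libraries, a ratio of 33.1 between the summed CPM with an exact 95% interval of 15.0 to 91.1, which covers counting error only. *Cdh17* had 7 reads against 155, a ratio of 15.5 with an interval of 7.35 to 39.2. The call of *Cdh17* was lost without P1 GFP+ replicate 2 (adjusted p = 0.0103).

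The Fat genes went in opposite directions. *Fat3* (ENSMUSG00000074505, chromosome 9, 15714649 to 16182681) was at 133 and 130 CPM in P1 GFP+ cells and at 23.2 and 24.1 CPM in P1 GFP- cells, a log2 fold change of 2.58 ± 0.09 (adjusted p = 1.40e-05). *Fat4*, which binds the cadherin Dchs1 and acts in planar polarity, was at 25.9 and 28.8 CPM in GFP+ cells against 334 and 314 CPM in GFP- cells (log2 -3.46 ± 0.10, adjusted p = 1.06e-05). *Fat1* was lower in GFP+ cells by less than 4-fold, at 191 and 169 CPM against 735 and 657 CPM (log2 -1.84 ± 0.13, adjusted p = 0.000110). *Fat2*, below 10 CPM in all 4 libraries, did not pass (adjusted p = 0.0150).

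Of the 9 delta protocadherins, 4 were past the criteria, all lower in P1 GFP+ cells: *Pcdh9*, *Pcdh10*, *Pcdh17* and *Pcdh18*. *Pcdh18* was at 8.99 and 6.11 CPM in GFP+ cells against 132 and 121 CPM in GFP- cells (log2 -3.94 ± 0.21, adjusted p = 4.13e-05). *Pcdh17* was at 9.91 and 9.0 CPM against 53.4 and 51.8 CPM (log2 -2.37 ± 0.12, adjusted p = 3.54e-05). *Pcdh9* (-3.21 ± 0.24) and *Pcdh10* (-2.79 ± 0.26) were at or below 4.10 CPM in GFP+ cells, and *Pcdh19* passed the adjusted p just short of the fold limit (-1.96 ± 0.14).

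*Pcdh1* and *Pcdh7* were higher in P1 GFP+ cells by less than 4-fold. *Pcdh1*, a protocadherin of epithelia, was at 83.5 and 90.6 CPM against 34.5 and 42.4 CPM (log2 1.28 ± 0.12, adjusted p = 0.000326). *Pcdh7* was at 62.6 and 64.3 CPM against 38.9 and 37.5 CPM (log2 0.84 ± 0.08, adjusted p = 0.000487). *Pcdh8* and *Pcdh11x* did not pass. Outside this class, *Pcdh12*, which endothelial cells express, was at 0.895 and 1.12 CPM against 4.30 and 4.77 CPM (log2 -2.08 ± 0.26, adjusted p = 0.00109), a call that was lost without P1 GFP+ replicate 1 (adjusted p = 0.0160).

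The clustered protocadherins showed smaller differences. The annotation used for the counts has 1 gene model each for the *Pcdha* and *Pcdhg* clusters (*Pcdha11* and *Pcdhgc5*, with 10 annotated transcripts each), so their single isoforms are not resolved. Both were lower in P1 GFP+ cells: *Pcdhgc5* was at 102 and 105 CPM against 216 and 198 CPM (log2 -0.90 ± 0.09), and *Pcdha11* was at 3.58 and 4.50 CPM against 11.4 and 19.0 CPM (log2 -1.82 ± 0.28, adjusted p = 0.00281, and 0.0263 and 0.0158 without either P1 GFP+ replicate). *Pcdhb1*, at 1.33 and 1.12 CPM against 0.264 and 0.301 CPM, was the 1 *Pcdhb* gene of 21 past the criteria (log2 2.21 ± 0.36, adjusted p = 0.00325), and its call was lost without either P1 GFP+ replicate (adjusted p 0.0477 and 0.0214). By the adjusted p alone, 8 of the 21 *Pcdhb* genes were lower in P1 GFP+ cells and 1 was higher, against 20.7% and 16.6% of all genes. The median log2 fold change of the cluster was -0.74. The lower calls were lost without P1 GFP+ replicate 2. *Pcdhb17*, the most abundant of the cluster per kb in both P1 groups, was at 38.2 and 42.1 CPM against 32.2 and 32.9 CPM and did not pass (adjusted p = 0.0129). Reads that aligned to more than 1 place were not counted, so the counts of *Pcdhb* genes with near-identical copies are uncertain.

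**Figure D3:**
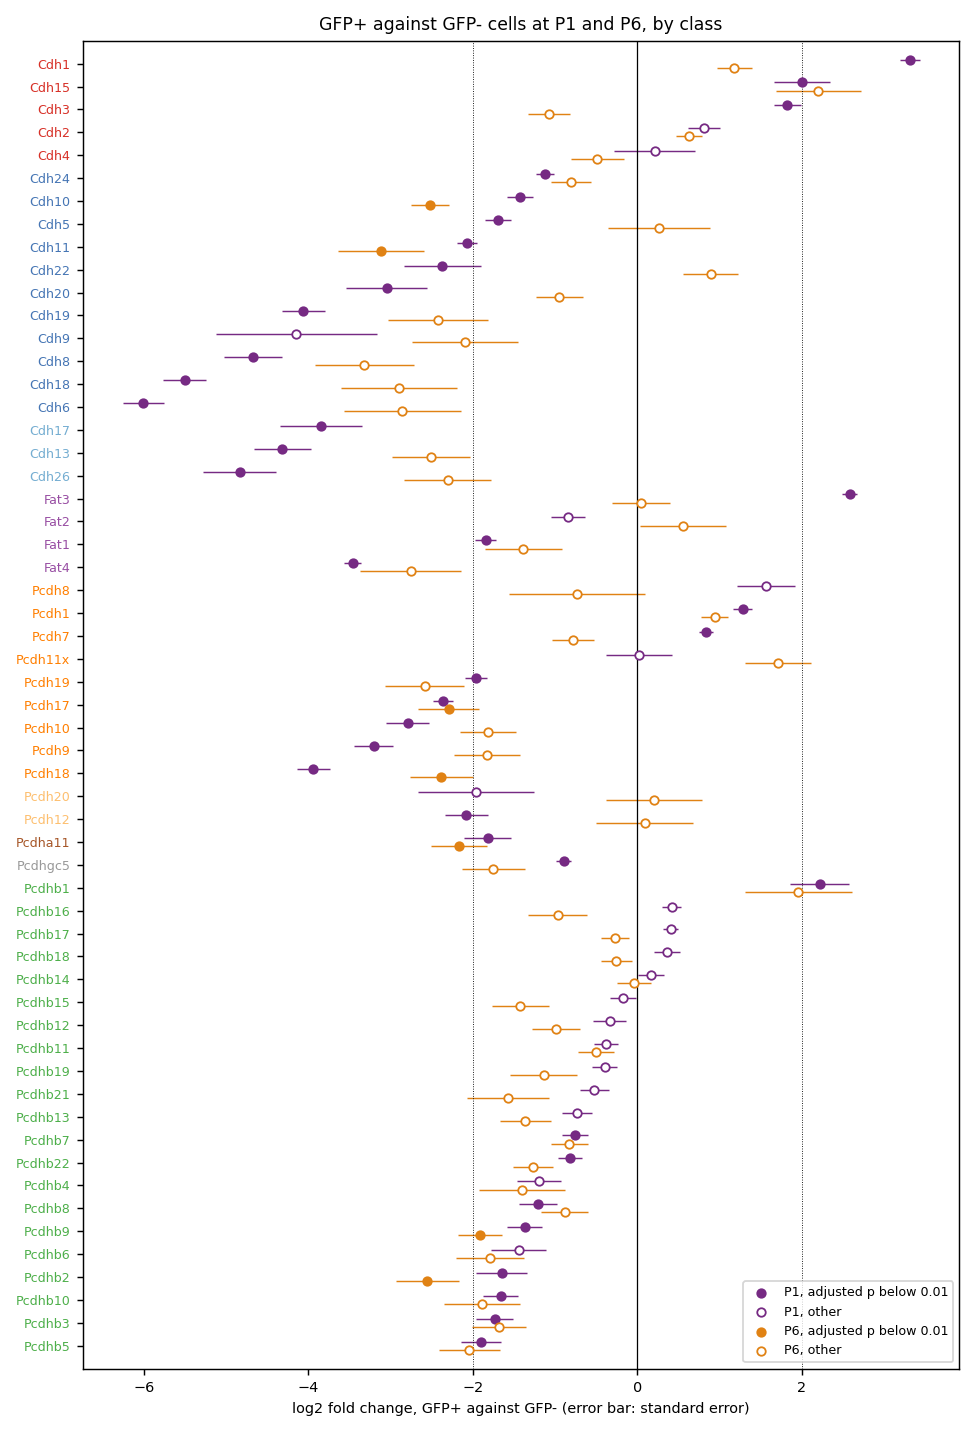
Log2 fold change (point) and standard error (bar) of GFP+ against GFP- cells at P1 (purple) and P6 (orange) for the genes tested at P1, ordered by class and coloured by class on the axis; filled points have an adjusted p below 0.01 and dotted lines mark a 4-fold change. *Cdh1* and *Fat3* stand at 3.31 and 2.58 at P1, while 16 genes are past the criteria on the left.

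At P6, 56 of the 57 genes were tested between GFP+ and GFP- cells. The P6 and P1 comparisons use different libraries, but each shares its libraries with the comparisons between ages below. At P6, 6 genes were past the criteria, all lower in GFP+ cells: *Cdh10*, *Cdh11*, *Pcdh17*, *Pcdh18*, *Pcdha11* and *Pcdhb2*. Over all 18294 genes, 3.10% were past the criteria and lower, and 4.88% were past them and higher. With edgeR, 0 of the 56 were past the criteria and higher, and 7 were higher and 38 lower at an unadjusted p below 0.05, against 20.9% and 24.0% of all genes. The median log2 fold change of the 56 was -1.32, against -0.02 over all genes. With the adjusted p alone, 7 were lower and 0 higher, against 5.19% and 7.72% of all genes.

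The count of 6 rested on single libraries. It changed when any 1 P6 library was left out, and so did the count over all genes. Without P6 GFP- replicate 2, 0 of all 18019 genes tested were past the criteria. The DESeq2 test gave 15, of which 1 was higher, and the fit without a filter on low counts gave 17. Over all genes these fits gave 2260 of 18294 and 2528 of 26518, against 1459 of 18294 in the fit above. The direction of the 6 genes did not change under any of these alternatives.

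*Cdh11* was at 17.6 and 55.0 CPM in P6 GFP+ cells and at 322 and 303 CPM in P6 GFP- cells (log2 -3.12 ± 0.52, adjusted p = 0.00963). *Cdh10*, a type II cadherin of neurons, was at 6.25 and 9.31 CPM against 44.8 and 44.4 CPM (log2 -2.52 ± 0.23, adjusted p = 0.00182). *Pcdh17* was at 14.0 and 31.2 CPM against 117 and 104 CPM (log2 -2.29 ± 0.37, adjusted p = 0.00867). For these genes the GFP+ replicates differed, but the groups lay apart. Without P6 GFP+ replicate 2 the log2 fold changes were -4.13 for *Cdh11*, -2.82 for *Cdh10* and -2.96 for *Pcdh17*.

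*Pcdh18* was at 8.78 and 20.6 CPM in P6 GFP+ cells against 75.0 and 78.5 CPM in P6 GFP- cells (log2 -2.39 ± 0.38, adjusted p = 0.00857). In the clusters, *Pcdha11* was at 2.98 and 5.79 CPM against 21.7 and 17.9 CPM (log2 -2.17 ± 0.34, adjusted p = 0.00825). *Pcdhb2* was at 0.506 and 0.837 CPM against 4.31 and 3.75 CPM (log2 -2.55 ± 0.38, adjusted p = 0.00684). In each of these 3 genes both GFP+ libraries were below both GFP- libraries, and the log2 fold changes were -3.11, -2.71 and -2.97 without P6 GFP+ replicate 2. *Pcdhb9* passed the adjusted p alone (log2 -1.91 ± 0.27, adjusted p = 0.00591).

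*Cdh6* and *Fat4*, far lower in GFP+ cells at P1, did not pass at P6. *Cdh6* was at 3.10 and 17.9 CPM in P6 GFP+ cells against 74.6 and 78.7 CPM in P6 GFP- cells (log2 -2.86 ± 0.71, adjusted p = 0.0295). Without P6 GFP+ replicate 2 the log2 fold change was -4.61, and without replicate 1 it was -2.07. *Cdh6* passed with no filter (adjusted p = 1.33e-05), with the replicate block (0.00906) and with all 8 libraries (0.00556). *Fat4* was at 20.3 and 81.7 CPM in P6 GFP+ cells and at 360 and 323 CPM in P6 GFP- cells (log2 -2.76, adjusted p = 0.0217). It was at -4.05 without P6 GFP+ replicate 2 (adjusted p = 5.33e-10), and it also passed with the DESeq2 test (7.67e-06), with no filter (6.08e-06), with the replicate block (0.00838) and without replicate 1 (3.77e-07). Their GFP+ replicates were both below the GFP- libraries.

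For *Cdh5* and *Pcdh12*, both endothelial genes, P6 GFP+ replicate 2 exceeded every GFP- library. *Cdh5* was at 11.6 and 52.4 CPM in P6 GFP+ cells and at 28.6 and 24.4 CPM in P6 GFP- cells. The log2 fold change was 0.26 ± 0.62 (adjusted p = 0.777), -1.17 without P6 GFP+ replicate 2 (adjusted p = 7.40e-05) and 1.01 without replicate 1 (adjusted p = 6.91e-05). *Pcdh12* was at 1.97 and 7.87 CPM against 4.77 and 4.54 CPM (log2 0.09 ± 0.59, adjusted p = 0.924), and at -1.22 without replicate 2 (adjusted p = 0.00526). The GFP+ replicates of both genes lay on either side of the GFP- libraries. *Cdh5* was singled out here after its values were seen.

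The type I cadherins missed the threshold at P6. *Cdh1* was at 466 and 506 CPM in P6 GFP+ cells and at 241 and 187 CPM in P6 GFP- cells (log2 1.18 ± 0.21, adjusted p = 0.0116). The groups did not overlap, and the adjusted p was 9.16e-05 without P6 GFP+ replicate 2 and 4.60e-05 without replicate 1. *Cdh2* was at 92.8 and 93.2 CPM against 64.5 and 55.8 CPM (log2 0.62 ± 0.16, adjusted p = 0.0308, and 0.00286 and 0.00251 without P6 GFP+ replicate 1 and 2). *Cdh3* had the opposite sign to P1, at 9.29 and 14.1 CPM in GFP+ cells against 27.1 and 22.2 CPM in GFP- cells (log2 -1.08 ± 0.26, adjusted p = 0.0256). It was lower and passed with the DESeq2 test (adjusted p = 0.00478), with no filter (0.00128), with all 8 libraries (0.00629), and without P6 GFP+ replicate 1 (log2 -0.78, 0.00304) or 2 (log2 -1.39, 2.64e-05).

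The P6 fractions overlapped for *Cdh4* and *Fat3*. *Cdh4* was at 5.97 and 10.2 CPM in GFP+ cells and at 12.8 and 9.88 CPM in GFP- cells (log2 -0.49 ± 0.32, adjusted p = 0.288, and -0.91 with an adjusted p of 0.00552 without P6 GFP+ replicate 2). *Fat3* was at 9.62 and 19.7 CPM against 12.2 and 16.2 CPM (log2 0.04 ± 0.36, adjusted p = 0.942). The sign for *Fat3* turned without P6 GFP+ replicate 2 (log2 -0.54, adjusted p = 0.0457).

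**Figure D4:**
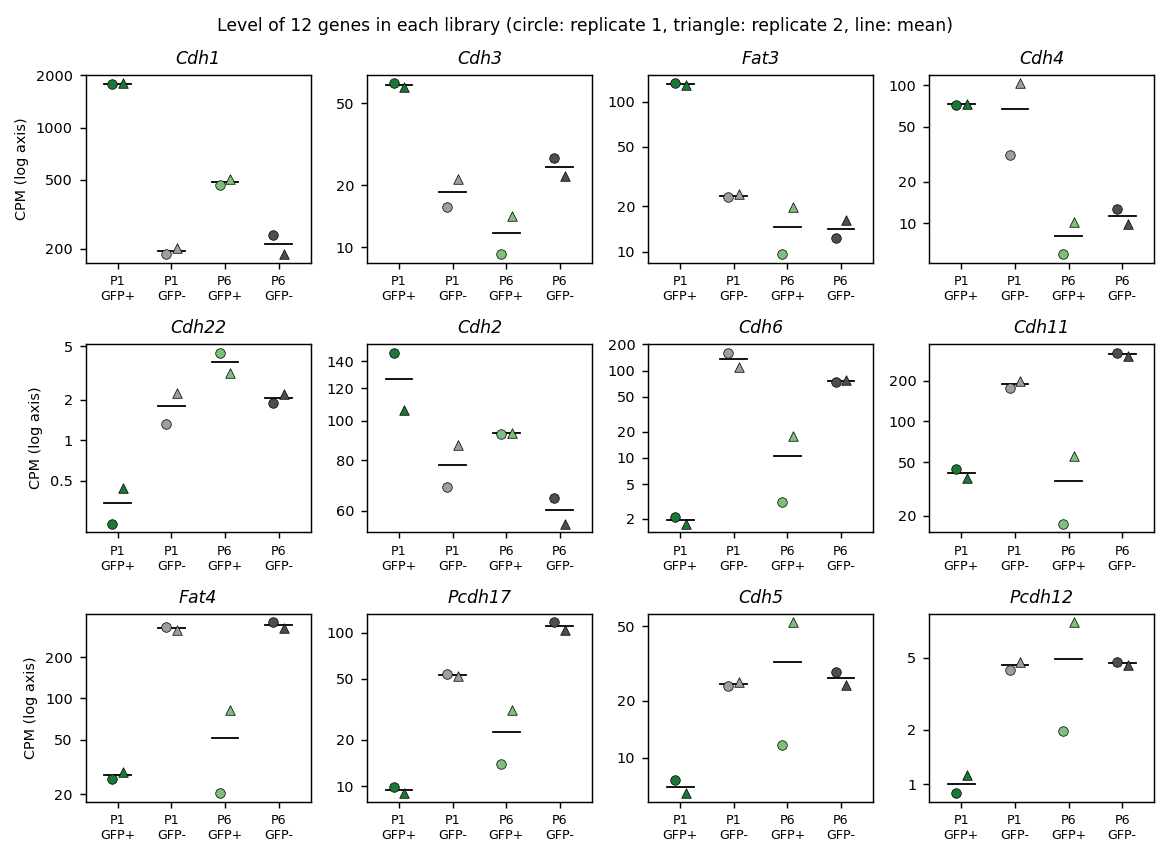
CPM on a log axis of 12 genes in each library, with a circle for replicate 1, a triangle for replicate 2 and a line at the group mean. *Cdh1*, *Cdh3* and *Fat3* are highest in P1 GFP+ cells, and for *Cdh5* and *Pcdh12* the P6 GFP+ triangle lies above all other libraries.

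The comparison of P6 with P1 in GFP+ cells asked which of these genes change in supporting cells over the days when their ability to make hair cells is lost. Of 53 genes tested, 1 was past the criteria and higher at P6 (*Cdh22*) and 3 were past them and lower (*Fat3*, *Cdh3* and *Cdh4*). Over all 17213 genes the shares were 1.63% higher and 0.930% lower. With the adjusted p alone, 1 was higher and 4 lower, against 2.86% and 1.95% of all genes. The median log2 fold change of the 53 genes was -0.10, against -0.0024 over all genes. The balance of directions rested on which library was used. Those past the criteria were mostly higher without P6 GFP+ replicate 1 and mostly lower without P6 GFP+ replicate 2. More of all genes were also past them in both of these fits. Without P6 GFP+ replicate 1 those were mostly higher too, and without replicate 2 they were about evenly split. With the DESeq2 test 4 of the 53 genes were higher and 3 lower. Over all 17213 genes that test had 1039 past the criteria, against 441 with edgeR. The count of these genes was smaller without either P1 GFP+ replicate, and those still past the criteria were all lower. The count over all genes was larger without P1 GFP+ replicate 1 and smaller without replicate 2.

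The 3 genes that fell were among the more abundant of the set in P1 GFP+ cells. *Cdh4* fell from 72.4 and 73.0 CPM at P1 to 5.97 and 10.2 CPM at P6 (log2 -3.07 ± 0.26, adjusted p = 0.00376). *Fat3* fell from 133 and 130 CPM to 9.62 and 19.7 CPM (log2 -3.06 ± 0.33, adjusted p = 0.00624). *Cdh3* fell from 62.7 and 59.8 CPM to 9.29 and 14.1 CPM (log2 -2.29 ± 0.22, adjusted p = 0.00476), a call that was lost without P1 GFP+ replicate 2 (adjusted p = 0.0131). For all 3 genes every P6 library was below every P1 library.

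*Cdh1* fell by less than 4-fold, from 1779 and 1803 CPM to 466 and 506 CPM (log2 -1.79 ± 0.16, adjusted p = 0.00402, and 0.0283 without P1 GFP+ replicate 2). *Cdh2*, the other type I cadherin with a high level, went from 147 and 106 CPM to 92.8 and 93.2 CPM and did not pass (log2 -0.36 ± 0.19, adjusted p = 0.230). *Cdh22*, a type II cadherin, rose from 0.240 and 0.442 CPM to 4.50 and 3.18 CPM (log2 3.63 ± 0.46, adjusted p = 0.00913). It was one of 3 genes of the 57 with a lower CPM in P6 GFP+ replicate 2 than in replicate 1, and its call was lost without either P1 GFP+ replicate (adjusted p 0.0181 and 0.0324).

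*Cdh5* (log2 2.27 ± 0.68, adjusted p = 0.0728), *Cdh6* (2.52 ± 0.80, adjusted p = 0.0832) and *Pcdh12* (2.39 ± 0.68, adjusted p = 0.0642) had positive values of similar size but did not pass with edgeR. All 3 passed with the DESeq2 test (adjusted p 0.000537, 0.00236 and 0.00484), with no filter on low counts, and without P6 GFP+ replicate 1, where the log2 fold changes were 2.95, 3.25 and 3.05. They differed widely between the P6 GFP+ replicates, as described above. The values without P6 GFP+ replicate 2 were 0.84 for *Cdh5* (adjusted p = 0.000398), 0.78 for *Cdh6* (0.0414) and 1.11 for *Pcdh12* (0.0255).

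In GFP- cells, 1 of 57 genes was past the criteria between P6 and P1: *Cdh17*, which fell from 1.61 and 1.49 CPM to 0.113 and 0.192 CPM (log2 -3.13 ± 0.42, adjusted p = 0.00402). The call was lost without either P6 GFP- replicate (adjusted p 0.0455 and 0.0256). Over all 18920 genes, 1.43% were past the criteria and higher and 0.418% lower. With edgeR, 0 of the 57 were past the criteria and higher, with 9 higher and 12 lower at an unadjusted p below 0.05, against 18.4% and 16.0% of all genes. The DESeq2 test called 1 gene, also *Cdh17*, and 490 of all 18920 genes, against 350 with edgeR. The count was higher without P1 GFP- replicate 1, as was that over all genes.

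With the adjusted p alone, 4 genes were higher in P6 GFP- cells, against 5.04% of all genes, and 2 were lower, against 2.34%. *Cdh11* rose from 177 and 197 CPM to 322 and 303 CPM (log2 0.93 ± 0.12, adjusted p = 0.00332). *Pcdh17* rose from 53.4 and 51.8 CPM to 117 and 104 CPM (log2 1.26 ± 0.12, adjusted p = 0.00115). *Cdh10* (log2 1.10 ± 0.13) and *Pcdh7* (1.07 ± 0.15) rose as well, and *Cdh18* fell by 1.31 ± 0.19 on the log2 scale. Without P6 GFP- replicate 1 the adjusted p of *Cdh11* was 0.0233, that of *Cdh10* 0.0272, that of *Pcdh7* 0.0259 and that of *Cdh18* 0.0440, and without replicate 2 *Cdh11* (0.0132), *Cdh10* (0.0191) and *Cdh18* (0.0454) were lost too. With all 8 libraries in 1 fit the adjusted p was 0.159 for *Cdh11*, 0.0264 for *Pcdh17*, 0.0130 for *Pcdh7* and 0.120 for *Cdh18*.

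The 4 genes that fell in GFP+ cells did not pass in GFP- cells in the edgeR fit used above, although *Cdh4* and *Fat3* were lower at P6 there too. *Cdh1* had a log2 fold change of 0.33 ± 0.16 there (adjusted p = 0.181), *Cdh3* of 0.60 ± 0.20 (0.0805) and *Fat3* of -0.55 ± 0.16 (0.0579). *Cdh3* passed there, higher at P6, with no filter (0.00254), and its log2 fold change was 0.83 without P1 GFP- replicate 2. The crossed replicate block also gave a pass (0.00827), but that block was chosen after seeing the replicate differences of these libraries. *Cdh4* went from 31.3 and 104 CPM to 12.8 and 9.88 CPM (log2 -2.38 ± 0.50, adjusted p = 0.0198). *Cdh4* passed with no filter (adjusted p = 4.71e-46). Its log2 fold change was -3.02 without P1 GFP- replicate 1 and -1.29 without replicate 2, so its size rested on which of these libraries was used.

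**Figure D5:**
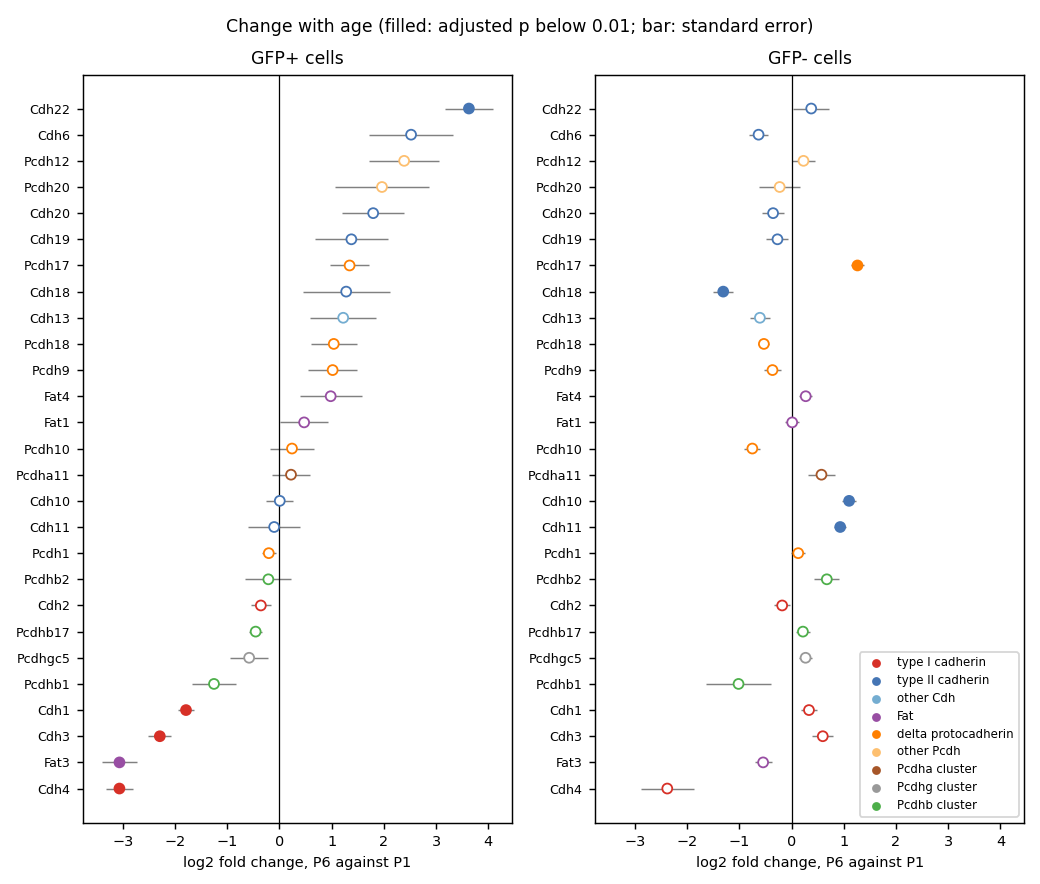
Log2 fold change of P6 against P1 (point) with its standard error (bar) in GFP+ cells and in GFP- cells for the named genes tested in GFP+ cells, coloured by class; filled points have an adjusted p below 0.01. *Cdh4*, *Fat3*, *Cdh3* and *Cdh1* fall in GFP+ cells, from -3.07 to -1.79, and *Cdh22* rises by 3.63.

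Whether the ratio of GFP+ to GFP- cells differed between P1 and P6 was tested as the interaction of fraction and age over all 8 libraries. Of the 57 genes, 3 passed at an adjusted p below 0.01, and in all 3 the ratio was lower at P6: *Cdh3*, *Cdh1* and *Fat3*. Over all 19233 genes, 0.988% passed with a lower ratio and 0.946% with a higher one. With edgeR, 0 of the 57 passed with a higher ratio at P6, and 11 had a higher and 10 a lower ratio at an unadjusted p below 0.05, against 12.3% and 8.98% of all genes. The balance of directions differed between the fits. The DESeq2 test passed 3 with a higher and 5 with a lower ratio at P6, and the fit with no filter passed 13 and 8. Over all genes these fits passed 1439 of 19233 and 2400 of 28415, against 372 of 19233 in the fit above. Those that passed mostly had a higher ratio without P6 GFP+ replicate 1 and a lower one without P6 GFP+ replicate 2. More of all genes also passed in these 2 fits. The count was lower when any other 1 library was left out, as was that over all genes.

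The log2 ratio of *Cdh3* went from 1.82 at P1 to -1.08 at P6 (difference -2.91 ± 0.33, adjusted p = 0.00324). That of *Cdh1* went from 3.31 to 1.18 (difference -2.15 ± 0.25, adjusted p = 0.00332). That of *Fat3* went from 2.58 to 0.04 (difference -2.54 ± 0.38, adjusted p = 0.00879). Leaving out any 1 of the P1 libraries or of the P6 GFP- libraries kept the difference of *Cdh1* between -1.92 and -2.35 with adjusted p-values between 0.0107 and 0.0269, and that of *Fat3* between -2.38 and -2.71 with adjusted p-values between 0.0248 and 0.0566. *Cdh3* was at -2.86, -2.95, -2.73 and -3.09 without P1 GFP+ replicate 1, P1 GFP+ replicate 2, P6 GFP- replicate 1 and P6 GFP- replicate 2, with adjusted p-values between 0.0205 and 0.0251. All 3 passed without either P6 GFP+ replicate. With the replicate block *Cdh1* (adjusted p = 0.0109) and *Fat3* (0.0138) were lost and *Cdh3* was at 0.00998, and with library totals *Fat3* was lost (0.0172). *Cdh22* (difference 3.25 ± 0.59) and *Pcdh7* (-1.63 ± 0.29) missed the threshold, with adjusted p-values of 0.0182 and 0.0169. Both passed with the DESeq2 test (adjusted p 4.37e-05 and 6.50e-05) and with no filter (2.54e-07 and 9.86e-09). *Cdh4*, which fell in GFP+ cells, had a difference of -0.70 ± 0.69 (adjusted p = 0.620).

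Genes that act with cadherins were described as 5 lists, by their counts, with single values given as the mean of the 2 libraries of a group. Of 16 desmosomal cadherins and plaque proteins, 11 were tested at P1 and 6 were past the criteria and higher in GFP+ cells, with a median log2 fold change of 2.38, against 6.46% and 0.01 over all genes. At P6, 6 of 10 tested were past the criteria and higher, with a median of 2.54, against 4.88% and -0.02. The count of 6 was the same without either P6 GFP+ replicate. The desmosomal cadherins *Dsg2* (40.4 against 3.87 CPM at P1) and *Dsc2* (19.6 against 1.29 CPM) and the plakophilin *Pkp3* (85.5 against 5.75 CPM) were past the criteria at both ages. *Dsg3* was past them at P1, at 4.52 and 4.86 CPM against 0.0264 and 0.0158 CPM, which is 1 read in each GFP- library. In P6 GFP+ cells it was at 0.450 and 0.837 CPM.

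Of 18 catenins and junction partners, 3 were past the criteria at each age, all higher in GFP+ cells. The nectins *Pvrl3* and *Pvrl4* were past them at both ages. *Pvrl3*, a nectin at contacts of supporting cells with hair cells, was at 413 against 60.9 CPM at P1 and at 330 against 46.3 CPM at P6. The medians of this list were 0.91 and 0.55, beside the same shares and medians of all genes. Of 12 tested genes of the list of other cadherin superfamily genes, 2 were past the criteria and higher in P1 GFP+ cells, both of them seven-pass cadherins of planar polarity: *Celsr1* (517 against 106 CPM) and *Celsr2* (555 against 125 CPM). The 4 that were lower were *Clstn2*, *Ret*, *Cdhr1* and *Cdhr4*, where 11.4% of all genes were, and the median of the list was -1.68. At P6, *Fjx1*, the relative of the four-jointed kinase that modifies Fat cadherins, was lower in GFP+ cells (4.36 against 23.4 CPM), 1 of 10 tested against 3.10% of all genes. In the fit without P6 GFP+ replicate 2, 3 of 11 were lower, against 11.2%.

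Of the 12 tested regulators of the protocadherin clusters, which include *Ctcf* and the cohesin genes, 0 were past the criteria in any of the 4 comparisons with edgeR or with DESeq2. At an unadjusted p below 0.05, 1 was higher and 5 were lower in GFP+ than in GFP- cells at P1 (28.6% and 30.6% of all genes), 1 was higher and 4 were lower at P6 (20.9% and 24.0%), and 1 was lower at P6 than at P1 in each fraction (17.1% of all genes in GFP+ and 16.0% in GFP- cells). In the list of cadherin switch and cleavage genes, 4 of 16 were past them and higher and 7 lower in P1 GFP+ cells, where 6.46% and 11.4% of all genes were. At P6 it was 5 and 4, against 4.88% and 3.10%. The median log2 fold change of the list at P6 was -0.38, and -0.48 without P6 GFP+ replicate 2, against -0.02 and -0.06 over all genes. Those lower at P1 included the repressors of *Cdh1* known from epithelial-mesenchymal transition, *Zeb1* (6.19 against 134 CPM), *Zeb2* (12.8 against 293 CPM), *Snai1*, *Snai2*, *Twist1* and *Twist2*. Those higher included the epithelial regulators *Grhl2* (96.8 against 9.45 CPM), *Ovol2*, *Esrp1* and *Esrp2*. *Zeb1* and *Zeb2* were not past the criteria at P6, where they were at 7.77 and 26.4 CPM and at 16.8 and 58.5 CPM in the GFP+ replicates. In GFP+ cells between P1 and P6, 0 of 15 tested genes of this list were past the criteria with edgeR and 1 with DESeq2. At an unadjusted p below 0.05, 8 were higher and 1 lower, against 21.1% and 17.1% of all genes, with a median log2 fold change of 0.67. Without P6 GFP+ replicate 2, which had more mesenchyme marker RNA, the median was 0.45, against -0.02 over all genes. P6 GFP+ replicate 1 also had more of these markers than P1 GFP+ cells, at 1780 CPM summed against 532 and 458 CPM. The part of mesenchyme in this change was not tested. Without replicate 1, 5 of 16 were past the criteria and higher, against 7.19% of all genes. Between the ages, the calls in these lists with edgeR were of *Ret*, *Dsg3*, *Celsr3* and *Cdhr1*. *Ret* rose in GFP+ cells, 1 of 10 tested of its list, against 1.63% of all genes. *Dsg3* rose in GFP- cells, 1 of 10 of its list, against 1.43%. *Celsr3* and *Cdhr1* fell in GFP- cells, 2 of 12 of their list, against 0.418%.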

How the data were processed

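Cells were sorted from P1 and P6 *Lfng-GFP* cochleas, and poly(A) RNA was sequenced in paired ends with a kit that does not mark strand. The authors aligned reads to mm9 (NCBIM37) with TopHat (version 1.4.0 in the submitters' processing notes) and counted them with HTSeq, and deposited raw counts of each Ensembl gene without normalization. The overlap mode and strand setting are not given in the sources used here, so antisense and overlapping transcripts cannot be told apart. Ambiguous reads (2.05% to 2.53% of those listed per library) and reads with more than 1 alignment (7.41% to 9.60%) are listed apart and were left out. A gene with 1 CPM had from 17.8 to 67.7 reads, so low genes are known with little precision.

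Each comparison was fitted on its 4 libraries with edgeR 4.0.16 in R 4.3.3 (filterByExpr with minimum count 10 and minimum total count 15, TMM, quasi-likelihood test, Benjamini-Hochberg adjustment over all genes tested). Standard errors were derived from each log2 fold change and its F statistic. The fits were tested on simulated data. The alternatives were DESeq2 1.42.0 size factors or test, library totals, no filter on low counts, a replicate block, all 8 libraries, and leaving out each library. A crossed replicate block was chosen after seeing the data. Promoter windows are from RefSeq.

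The members and lists were chosen with earlier results of these data known. Genes named are those past the criteria in any comparison (at most 3 per cluster), *Cdh1*, *Cdh2*, *Cdh3*, *Cdh4* and *Fat3*, the most abundant of each class in each group, and those that passed the interaction; others named beside them passed the adjusted p or were chosen after their values were seen. Results were drawn with Python 3.11.15 and matplotlib 3.10.9.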

Additional observations from a re-analysis of the deposited data

Results flagged for a closer look

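In 3 genes the ratio of GFP+ to GFP- cells differed between the ages by the test of the interaction itself. The log2 ratio at P6 minus that at P1 was -2.91 for *Cdh3*, -2.15 for *Cdh1* and -2.54 for *Fat3*. The adjacent genes *Cdh3* and *Cdh1* on chromosome 8 did not keep the same sign at P6. There *Cdh3* was lower in both GFP+ libraries than in both GFP- libraries and *Cdh1* was higher. Neither gene passed at P6 with edgeR (adjusted p = 0.0256 for *Cdh3*). Both passed with the DESeq2 test (0.00478 for *Cdh3* and 2.20e-05 for *Cdh1*). With 2 libraries in each group, no test for a single library far from the rest of its group could be made, and the values of P6 GFP+ replicate 2, which stood apart from replicate 1, are given in the results above.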

How the results depend on the processing

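With 2 libraries in each group, most limits come from single libraries. At P1 the count of 19 genes past the criteria was 15 to 22 under all alternatives. At P6 the count of 6 was 10 with DESeq2 size factors, 2 with library totals, 15 with the DESeq2 test, 17 with no filter on low counts, 11 with the replicate block, 16 with all 8 libraries, and 0 to 27 without 1 library. Between ages in GFP+ cells the count of 4 was 7 with the DESeq2 test, 8 with no filter and 2 to 12 without 1 library. In GFP- cells the count of 1 was 2 with no filter, 0 with the replicate block, 0 with all 8 libraries, 2 with the crossed replicate block and 0 to 3 without 1 library. For the interaction the count of 3 was 8 with the DESeq2 test, 21 with no filter, 1 with the replicate block (*Cdh3*) and 0 to 13 without 1 library. Counts over all genes moved under these alternatives too. At P6 the count was 1459 in the edgeR fit and 2260 with the DESeq2 test, and for the interaction it was 372 and 1439. The cause of these differences was not tested, but each fit without a library rests on 1 library in 1 group, which is assumed to vary like the others.

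Of 1009 alternative values for single genes, 836 kept their direction and side of the threshold, 89 no longer passed, 72 newly passed and 12 changed sign. The sign changes were *Cdh4* at P1 (-0.43 to 1.31 without 1 library), *Cdh5* at P6 (-0.077 with the replicate block, -1.17 to 1.01 without 1 library), *Fat3* at P6 (-0.0016 with no filter, -0.031 with the replicate block, -0.54 to 0.50 without 1 library, with -0.09 without P6 GFP- replicate 1), *Pcdh12* at P6 (-0.18 with the replicate block, -1.22 to 0.78 without 1 library), *Fat4* in GFP+ cells between ages (-0.30 to 1.64 without 1 library, the lowest without P6 GFP+ replicate 2) and the interactions of *Fat4* (-0.61 to 1.34, likewise) and *Cdh2* (-0.41 to 0.074 without 1 library). The replicate numbers gave no sign of pairing the samples, with correlations of the replicate differences of 0.02, 0.08, -0.09 and -0.28 in the 4 comparisons, the last of which led to the crossed replicate block. Library totals moved the median of all genes between ages in GFP- cells from -0.02 to -0.21 (log2), so values there are relative to that shift. At P1 the fit of all 8 libraries lost the adjusted p of *Cdh5* (0.0327), *Pcdh12* (0.0144), *Pcdh7* (0.0118) and *Pcdhgc5* (0.0411). Genes below about 1 CPM had few reads in the smaller libraries.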
